A study of Homo sapiens with 8 samples.

Results

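The 9 genes described here encode the enzymes that close lanosterol and carry it through to cholesterol: LSS, CYP51A1, TM7SF2, MSMO1, NSDHL, HSD17B7, EBP, SC5D and DHCR7. They were chosen by gene symbol, with earlier results of these data known, and are given in the order of the pathway. All 9 were found among the 58870 gene rows of the deposited table. The data are RNA sequencing of Panc 10.05, an established line of human pancreatic ductal adenocarcinoma, with 4 control libraries and 4 libraries of cells carrying an ELAPOR1 transgene (endosome-lysosome associated apoptosis and autophagy regulator 1). The labels do not say what the control cells carried, how or from which promoter ELAPOR1 was overexpressed, or whether the cells were a clone or a pool. Nor do they say whether the replicates were separate cultures, so p-values measure the spread between these libraries, which may be technical. The title of the series names a metabolic change in cells with ELAPOR1, and the comparison asks which sterol steps took part.

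Cholesterol synthesis has an early arm, which builds squalene from acetyl-CoA, and a late arm, which begins when lanosterol synthase folds squalene epoxide into the steroid rings. The late enzymes sit in the endoplasmic reticulum, where they strip surplus methyl groups from lanosterol and move and remove double bonds of the ring system. Most genes of both arms are known targets of SREBP-2, a transcription factor that is released from the endoplasmic reticulum when the sterol content of its membrane is low.

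All 9 enzymes were lower in the ELAPOR1 libraries, by amounts that differed between steps. The falls ran from a log2 fold change of -0.20 for NSDHL to -0.77 for MSMO1, with a median of -0.57 over the 9 genes against 0.00087 over all 13860 genes tested. All 9 passed the edgeR quasi-likelihood test at an adjusted p-value under 0.05, and none was higher. Among all tested genes 22.1% were called lower and 22.6% higher at the same threshold, 44.7% in all. Levels of the groups did not overlap for any of the 9, with every ELAPOR1 library below every control library, a separation that 19.3% of all tested genes showed. A fall beyond 1.5-fold passed its own test (edgeR glmTreat) for MSMO1 and HSD17B7, which makes 2 of 9 against 0.657% of tested genes. Counts of the 9 genes together made up 0.195 ± 0.00137% of a control library and 0.133 ± 0.00177% of an ELAPOR1 library (SD, n = 4 each). In bulk RNA a lower level in every cell and fewer cells expressing a gene cannot be told apart.

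**Figure D1:**
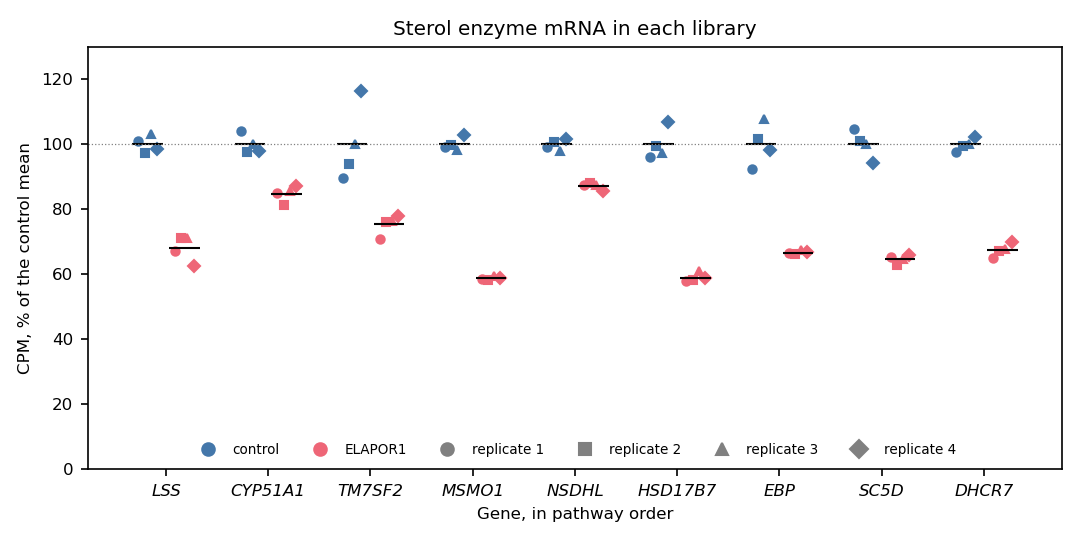
Level of each enzyme in every library, as counts per 1000000 (CPM) in percent of the control mean, in pathway order. Points are libraries, with a marker shape for each replicate number, and black bars are group means. All ELAPOR1 points lie below all control points of the same gene, with the narrowest gap for NSDHL and the widest for MSMO1 and HSD17B7.

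Library totals were 16558600 to 18128757 counts in control and 13765509 to 17258166 in ELAPOR1 libraries, and the 9 genes held between 296 (TM7SF2) and 14660 (MSMO1) counts in single libraries. ELAPOR1, listed under its older symbol KIAA1324, had 1 to 4 counts in control and 5910 to 7368 counts in ELAPOR1 libraries, so all 8 libraries matched their labels. All 6 ductal epithelial markers checked were abundant, the lowest being CDH1 at a mean of 356 CPM. Of these, KRT18 (log2 fold change -0.36) and KRT8 (-0.16) were called lower and KRT7 (0.31), KRT19 (0.25) and CDH1 (0.11) higher by edgeR, while EPCAM (-0.025) was not called, and whether this bears on the sterol genes was not tested. Of 8 markers of leucocytes, fibroblasts, endothelium and acinar cells, COL1A2, LUM, CDH5, PRSS1 and CPA1 had no count in any library, PTPRC and PECAM1 had at most 1, and COL1A1 made up nearly all of a summed level of 2.71 to 4.32 CPM in control and 2.71 to 3.19 CPM in ELAPOR1 libraries.

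Because the 9 genes fell together, the sequence before their start sites was compared. RefSeq promoters (GRCh38.p14) were matched for all 9, and the 250 bases before each start were searched on both strands for known motifs, at both starts of SC5D and DHCR7. The CCAAT box, the motif bound by NF-Y, which is known to work beside SREBP factors, was present in 8 of 9 genes, all but CYP51A1, against 37.0% of 27305 genes in the same table. The GC box GGGCGG, bound by SP1-type factors, was present in 8 of 9, all but NSDHL, against 46.2%. These 27305 genes were not limited to genes expressed in these cells, and a comparison with expressed genes only was not made. Of the 6 early-arm genes with a promoter in the table, 5 held the CCAAT box and 6 the GC box. The E-box CACGTG was found in SC5D alone, against 7.73%. A loose form of the sterol regulatory element, TCACNCCAC, matched in none of the 9 genes, against 1.09% of all genes. The stretches below are those of the largest falls (MSMO1, HSD17B7), of the enzyme that opens the late arm (LSS) and of the smallest fall (NSDHL), 5′ to 3′ on the strand of the gene, with CCAAT or its reverse complement ATTGG in capitals. They were ended where an exon annotated in GENCODE 29 begins, so the fourth match in MSMO1 and the fifth in NSDHL lie beyond the shown bases. The windows of CYP51A1 (177 of 250 bases), TM7SF2, EBP and SC5D lie mostly or wholly within annotated exons and are not shown.
MSMO1, chr4:165327419-165327622, plus strand: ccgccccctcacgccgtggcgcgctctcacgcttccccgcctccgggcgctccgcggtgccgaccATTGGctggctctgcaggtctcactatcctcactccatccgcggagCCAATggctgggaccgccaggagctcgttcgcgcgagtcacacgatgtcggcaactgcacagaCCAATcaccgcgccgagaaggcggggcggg
HSD17B7, chr1:162790452-162790701, plus strand: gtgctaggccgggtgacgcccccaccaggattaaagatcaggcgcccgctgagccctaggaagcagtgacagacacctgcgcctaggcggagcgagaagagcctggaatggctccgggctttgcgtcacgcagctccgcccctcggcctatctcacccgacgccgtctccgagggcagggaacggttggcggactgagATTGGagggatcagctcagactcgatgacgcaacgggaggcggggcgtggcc
LSS, chr21:46228825-46229024, minus strand: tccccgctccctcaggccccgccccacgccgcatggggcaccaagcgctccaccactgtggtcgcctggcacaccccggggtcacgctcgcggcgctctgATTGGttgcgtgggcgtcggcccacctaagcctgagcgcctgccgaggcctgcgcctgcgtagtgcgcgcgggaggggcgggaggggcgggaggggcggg
NSDHL, chrX:152830813-152830966, plus strand: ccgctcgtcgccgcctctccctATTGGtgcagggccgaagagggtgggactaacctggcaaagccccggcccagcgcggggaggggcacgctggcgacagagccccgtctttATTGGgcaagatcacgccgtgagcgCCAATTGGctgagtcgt
In NSDHL the last of the marked stretches, CCAATTGG, holds the motif on both strands, in overlap. Over the full windows the matches numbered 5 in NSDHL, 4 in MSMO1, 3 in EBP, 2 at one start of DHCR7, 1 each in LSS, TM7SF2, HSD17B7 and SC5D (at either start), and 0 in CYP51A1. A match describes these letters and was not tested as a binding site.

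LSS, lanosterol synthase (ENSG00000160285.15, chromosome 21, 46188141 to 46228824 in GRCh38, minus strand), closes the steroid rings from squalene epoxide. Its levels were 84.0, 80.9, 85.8 and 82.0 CPM in control and 55.8, 59.2, 59.3 and 52.1 CPM in ELAPOR1 libraries. The groups were well apart, with ELAPOR1 replicate 4 the lowest. Its log2 fold change was -0.56 ± 0.0459 (SE, adjusted p = 4.5e-12 by edgeR), a level of 67.9% of control (95% CI 63.7 to 72.5%). The antisense genes AP001468.1 and AP001469.1, which overlap it in the annotation, had no counts.

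The next 5 genes act during the removal of the surplus methyl groups. CYP51A1 (ENSG00000001630.17, chromosome 7, 92112151 to 92134803, minus strand) is the cytochrome P450 that starts demethylation and the target of azole drugs in fungi. Its levels were 368, 346, 354 and 347 CPM in control and 301, 287, 303 and 308 CPM in ELAPOR1 libraries. The fall was the second smallest of the 9, with a log2 fold change of -0.24 ± 0.0307 (SE, adjusted p = 8.9e-08 by edgeR) and a level of 84.8% of control (95% CI 81.2 to 88.6%). Its expected counts were fractional in all 8 libraries, so some reads were shared with other genes. AC000120.3, a same-strand gene with overlapping exons, held 0 to 66.3 counts in control and 38.0 to 72.3 in ELAPOR1 libraries, at most 1.35% of the CYP51A1 count. With this gene, the overlapping AC000120.2 and the copies CYP51A1P1 and CYP51A1P2 added, the mean was 356 ± 8.93 CPM in control and 304 ± 9.93 CPM in ELAPOR1 libraries (SD, n = 4 each), so that the sum fell by 14.7% where CYP51A1 alone fell by 15.2% between the group means.

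TM7SF2 (ENSG00000149809.14, chromosome 11, 65111845 to 65116384, plus strand) is a reductase of the double bond that CYP51A1 leaves behind, an activity it shares with LBR. Its levels were 25.0, 26.2, 28.0 and 32.5 CPM in control and 19.8, 21.3, 21.3 and 21.7 CPM in ELAPOR1 libraries. Control replicate 4 was the highest, and TM7SF2 had the widest spread of the 9 genes, a coefficient of variation of 11.8% in control. The log2 fold change was -0.41 ± 0.0749 (SE, adjusted p = 3.4e-05 by edgeR). Its first exon shares 16 bases with the end of VPS51, a tethering-complex subunit gene on the same strand, which was also lower, from 125 ± 5.55 to 96.4 ± 2.86 CPM (SD, n = 4 each, -0.37 ± 0.0391 SE on the log2 scale, adjusted p = 1.2e-09 by edgeR). Whether transcripts that run on from VPS51 add to the TM7SF2 count was not tested.

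MSMO1 (ENSG00000052802.13, chromosome 4, 165327623 to 165343160, plus strand) is the methylsterol oxidase that attacks the remaining methyl pair. Its levels were 813, 820, 805 and 843 CPM in control and 480, 477, 488 and 484 CPM in ELAPOR1 libraries. Replicates differed little, at 820 ± 16.4 and 482 ± 4.54 CPM (SD, n = 4 each), and the fall was the largest of the 9. The log2 fold change was -0.77 ± 0.0270 (SE, adjusted p = 1.4e-21 by edgeR), a level of 58.8% of control (95% CI 56.6 to 61.1%). Only 2.55% of tested genes had a log2 fold change as low.

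NSDHL (ENSG00000147383.11, chromosome X, 152830967 to 152869729, plus strand) is the dehydrogenase that releases the oxidised methyl carbon. It stood at 66.6, 67.6, 65.7 and 68.3 CPM in control and at 58.7, 59.1, 58.6 and 57.4 CPM in ELAPOR1 libraries. The groups were separate though close, because the replicates were tight. This was the smallest fall, with a log2 fold change of -0.20 ± 0.0434 (SE, adjusted p = 3.1e-04 by edgeR) and a level of 87.1% of control (95% CI 82.0 to 92.6%). A log2 fold change as low was found in 23.3% of tested genes.

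HSD17B7 (ENSG00000132196.14, chromosome 1, 162790702 to 162812817, plus strand), the ketosteroid reductase that completes each round of methyl removal, fell nearly as far as MSMO1. Levels were 40.0, 41.5, 40.6 and 44.6 CPM in control and 24.1, 24.3, 25.4 and 24.5 CPM in ELAPOR1 libraries. The log2 fold change was -0.76 ± 0.0594 (SE, adjusted p = 1.2e-12 by edgeR), a level of 59.0% of control (95% CI 54.3 to 64.1%). Its pseudogenes could take reads from it: HSD17B7P1 had no counts and HSD17B7P2 had 1.04 counts in a single library, as the authors' counting assigned them.

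The last 3 genes rearrange the double bonds of the ring system. EBP (ENSG00000147155.11, chromosome X, 48521158 to 48528716, plus strand), the sterol isomerase also known as emopamil binding protein, was at 150, 165, 174 and 159 CPM in control and at 108, 107, 109 and 108 CPM in ELAPOR1 libraries. Its control libraries varied more (162 ± 10.4 CPM) than its ELAPOR1 libraries (108 ± 0.821 CPM, SD, n = 4 each), and its expected counts were fractional in all 8. The log2 fold change was -0.58 ± 0.0392 (SE, adjusted p = 3.1e-14 by edgeR).

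SC5D (ENSG00000109929.10, chromosome 11, 121292453 to 121308694, plus strand), the desaturase that adds a ring double bond, was at 132, 128, 127 and 119 CPM in control and at 82.6, 79.7, 81.8 and 83.6 CPM in ELAPOR1 libraries. Its log2 fold change was -0.63 ± 0.0393 (SE, adjusted p = 5.0e-15 by edgeR), the third largest fall. DHCR7 (ENSG00000172893.15, chromosome 11, 71428193 to 71452868, minus strand), the reductase whose loss causes Smith-Lemli-Opitz syndrome, was at 275, 280, 282 and 288 CPM in control and at 183, 189, 191 and 197 CPM in ELAPOR1 libraries. Its log2 fold change was -0.57 ± 0.0314 (SE, adjusted p = 2.1e-16 by edgeR), a level of 67.6% of control. EBP, SC5D and DHCR7, which act in sequence, thus stood within a narrow band of 64.7 to 67.6% of control. The band is not particular to these steps, since LSS was at 67.9% and SQLE of the early arm at 66.2%.

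Whether neighbouring steps fell by different amounts was examined with the ratio of each gene to the one before it within a library, which does not depend on how libraries were scaled. For 4 of the 8 ratios the groups did not overlap: CYP51A1 over LSS, MSMO1 over TM7SF2, NSDHL over MSMO1 and HSD17B7 over NSDHL. Each gave an exact permutation p of 0.0286 (two-sided), the smallest that 4 against 4 libraries allow, and 0.0571 after Benjamini-Hochberg adjustment over the 8 ratios, which misses 0.05. The largest differences were those with NSDHL. NSDHL per MSMO1 was 0.0820, 0.0825, 0.0816 and 0.0810 in control and 0.122, 0.124, 0.120 and 0.119 in ELAPOR1 libraries, a difference of 0.57 on the log2 scale where the SD within groups was 0.0111 and 0.0279. HSD17B7 per NSDHL went from 0.600, 0.613, 0.617 and 0.653 to 0.411, 0.411, 0.434 and 0.426, a log2 difference of -0.56. CYP51A1 per LSS differed by 0.32 and MSMO1 per TM7SF2 by -0.36 on the log2 scale. How often ratios of other gene pairs separate the groups was not examined, so the count of 4 of 8 has no reference.

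The other 4 ratios moved less. SC5D over EBP differed by -0.045 on the log2 scale (exact permutation p = 0.657, adjusted 0.657) and DHCR7 over SC5D by 0.061 (exact p = 0.343, adjusted 0.392). EBP over HSD17B7 differed by 0.18 (exact p = 0.0571, adjusted 0.0914) and TM7SF2 over CYP51A1 by -0.16 (exact p = 0.171, adjusted 0.229), and in all 4 the groups overlapped.

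**Figure D2:**
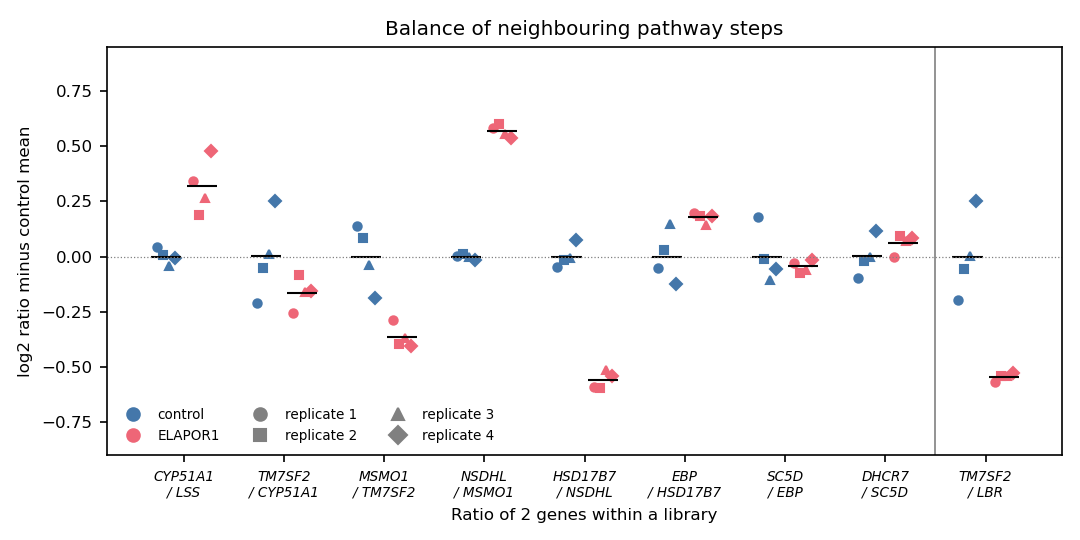
Ratio of 2 genes within each library on the log2 scale, minus the control mean of that ratio. Points are libraries and black bars group means. To the left of the vertical line are the 8 ratios of neighbouring steps, where NSDHL over MSMO1 differs by 0.57 and HSD17B7 over NSDHL by -0.56. To its right is TM7SF2 over LBR, added after the values were seen.

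LBR, the lamin B receptor, which carries the same reductase activity as TM7SF2, rose from 140 ± 3.38 to 155 ± 4.50 CPM (SD, n = 4 each, 0.14 ± 0.0344 SE on the log2 scale, adjusted p = 9.1e-04 by edgeR). TM7SF2 per LBR was 0.173, 0.190, 0.198 and 0.236 in control and 0.133, 0.136, 0.136 and 0.137 in ELAPOR1 libraries. This count ratio, not scaled by length, differed by -0.54 on the log2 scale, with no overlap between groups. It was chosen once the values had been seen and is given as a description only.

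The early arm was lower as well. Of the 9 early genes examined 8 were called lower and none higher, against 22.1% and 22.6% of all tested genes. The median of the 9 was -0.68 on the log2 scale. FDPS, which makes farnesyl diphosphate, was the lowest at -0.87, FDFT1 (squalene synthase) was at -0.78, and SQLE (squalene epoxidase), which hands its product to LSS, at -0.59 (edgeR adjusted p = 1.8e-17). PMVK, phosphomevalonate kinase, was not called at 0.064 (edgeR adjusted p = 0.640), and its low level of 11.6 CPM in control gave a wide interval. MVK, the preceding kinase, was at -0.37.

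Partners of the late enzymes moved in both directions: of 6 genes, 2 were called lower and 2 higher, with a median of -0.063. Among all tested genes the shares were 22.1% and 22.6%, so these counts are no result about the partners. ERG28, a scaffold of the demethylation enzymes, was lower at -0.25 (edgeR adjusted p = 6.0e-06), near the values of CYP51A1 (-0.24) and NSDHL (-0.20). POR, which passes electrons to CYP51A1 and SQLE, was called at -0.15 (adjusted p = 0.0175), a call lost without control replicate 4, ELAPOR1 replicate 1 or ELAPOR1 replicate 4 (adjusted p = 0.0825, 0.0837 and 0.0581). CYB5B, a cytochrome b5, was higher at 0.27 (adjusted p = 1.2e-08) and PGRMC1, a heme protein that binds P450 enzymes, at 0.20 (adjusted p = 3.0e-04). CYB5A and CYB5R3, which feed electrons to MSMO1 and SC5D, were not called.

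Among 8 genes of sterol sensing and shared targets, 4 were called lower and 1 higher, against 22.1% and 22.6% of all tested genes. The median of the 8 was -0.23. SREBF2, which encodes SREBP-2, was at -0.47 (edgeR adjusted p = 1.8e-14) and SREBF1 at -0.43. INSIG1 (-0.72), which retains the SREBP escort SCAP, fell about as far as MSMO1 and HSD17B7, and STARD4 (-0.38), a sterol carrier, about as far as TM7SF2. SCAP, INSIG2 and the protease gene MBTPS1 were not called, and the protease gene MBTPS2 was higher at 0.19 (adjusted p = 6.7e-03). Without control replicate 4 INSIG2 passed the threshold (-0.12, adjusted p = 0.0454), as MBTPS1 did without ELAPOR1 replicate 3 (0.095, adjusted p = 0.0429) and with total count scaling (0.088, adjusted p = 0.0431), all by edgeR.

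**Figure D3:**
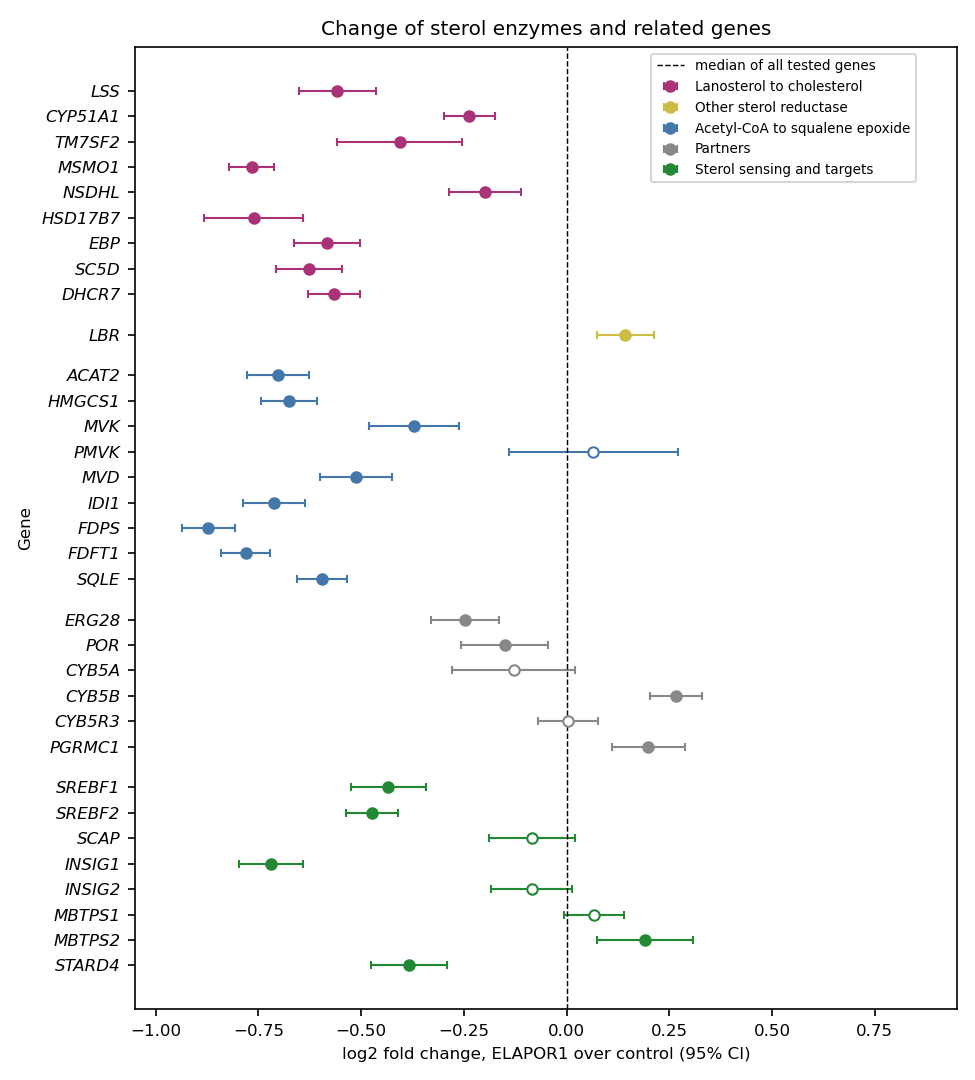
Log2 fold change of ELAPOR1 over control with its 95% confidence interval from the edgeR fit, grouped by role. Filled points passed an adjusted p-value of 0.05 and open points did not, and the dashed line is the median of all tested genes. The 9 late enzymes lie between -0.77 and -0.20, with CYP51A1 and NSDHL nearest to zero, while LBR lies to the right of the line.

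Levels of different genes were compared per kilobase of the longest annotated transcript. In control MSMO1 was highest at 362 ± 7.24 CPM per kb, followed by CYP51A1 at 110 ± 3.19, DHCR7 at 105 ± 1.97 and EBP at 91.3 ± 5.84 (SD, n = 4 each). The ranges of CYP51A1 and DHCR7 over the control libraries just met, at 108 to 115 and 103 to 108. Below them came SC5D at 51.6, NSDHL at 34.8, LSS at 16.9, HSD17B7 at 13.5 and TM7SF2 at 13.3 CPM per kb, of which HSD17B7 and TM7SF2 overlapped. In ELAPOR1 libraries the order was kept except at its end, where HSD17B7 (7.96 ± 0.187) came below TM7SF2 (10.0 ± 0.400) with no overlap. Scaled by merged exon length instead, NSDHL came before SC5D in both groups, and DHCR7 and EBP overlapped in control (67.5 ± 1.26 and 67.3 ± 4.30) and in ELAPOR1 libraries (45.6 ± 1.36 and 44.9 ± 0.341). On that scale CYP51A1 and DHCR7 were far apart in control, at 96.4 to 103 and 66.0 to 69.1 CPM per kb.

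**Figure D4:**
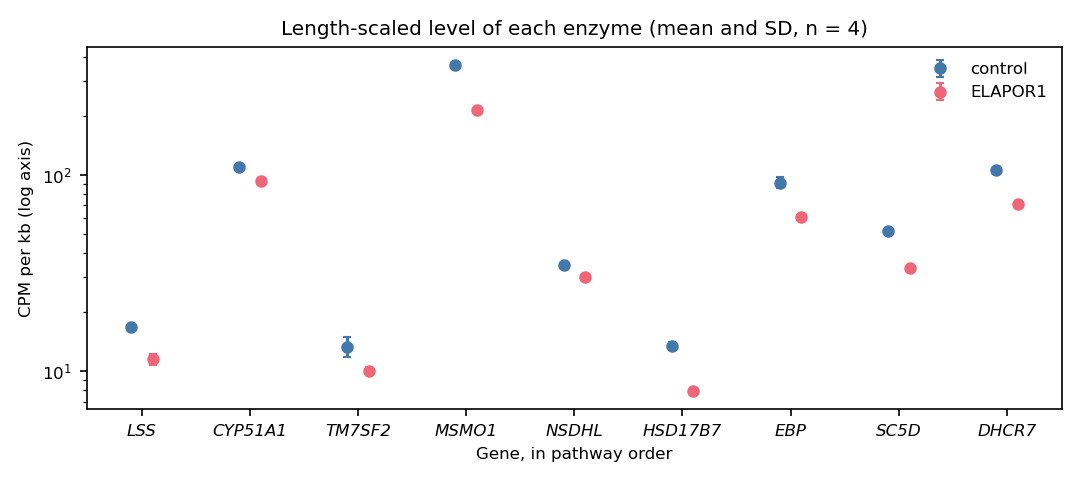
Length-scaled level of each enzyme in both groups, as CPM per kb of the longest annotated transcript on a log axis, with points for means and bars for SD (n = 4). MSMO1 stands above the others at 362 CPM per kb in control, and TM7SF2, HSD17B7 and LSS lie lowest.

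The 9 genes lie on 6 chromosomes, and the genes around them had medians near zero. For each, the 10 tested genes on either side (17 neighbours in all for LSS, near the chromosome end) had a median log2 fold change between -0.091 (LSS) and 0.12 (HSD17B7). No neighbour of LSS, MSMO1, HSD17B7, EBP or SC5D had a log2 fold change as low as theirs, while 2 neighbours of CYP51A1, 3 of NSDHL and 1 each of TM7SF2 and DHCR7 did. Around MSMO1, 2 of 20 neighbours were called lower and 9 higher, against 22.1% and 22.6% of all tested genes. The other loci varied, with 6 lower and 2 higher around TM7SF2, 6 and 4 around DHCR7, 5 and 1 around EBP and 4 and 3 around SC5D. Around CYP51A1 it was 4 and 7, around HSD17B7 2 and 4, around NSDHL 2 and 3 and around LSS 2 and 1.

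The tested genes outside the pathway lists that most resembled the mean pattern of the 9 were RPL4, PLAU, EEF1A1, LTBR and RNF145. Their log2 fold changes lay between -0.54 (EEF1A1) and -0.49 (LTBR). Likeness was the root mean square difference over 8 libraries of log2(CPM + 1) values centred on control, among 10703 genes averaging 5 CPM or more, and was 0.0224 for RPL4 and 0.0301 for RNF145. Of the 9 genes, DHCR7 was nearest to their own mean (0.0412, rank 12) and NSDHL farthest from it (0.227, rank 1720). With values centred on control, likeness depends largely on the size of the fall, and shared regulation was not tested.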

How the data were processed

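RNA was sequenced in 8 libraries of Panc 10.05, and the deposited table holds expected counts per gene (RSEM), not scaled between libraries; 15.0% of nonzero values are fractional. Per the submitters' processing notes cutadapt, STAR, RSEM and DESeq2 were used with build hg38; versions, annotation release and use of strand are not given in the sources used here. Every column matched a sample title.

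Expected counts were rounded, and genes were tested in R 4.3.3 with edgeR 4.0.16 (filterByExpr, TMM, robust quasi-likelihood test, two-sided, no covariate), with Benjamini-Hochberg adjustment over 13860 genes. CPM is the count per 1000000 of the TMM-scaled library. A standard error is the log2 fold change divided by the square root of F. Single values were compared by exact permutation (scipy 1.17.1). Positions, lengths and overlaps are from GENCODE 29 (GRCh38), in which 58597 of 58870 identifiers were found without version. The members and lists were chosen with earlier results of these data known. Genes are named as members, from fixed lists of the pathway, as overlapping a member, or as the 5 most alike; 4 genes of the fixed lists are not reported here and are in no list count. The procedure was tested on simulated data. The alternatives were other scalings, DESeq2 1.42.0, limma-voom (limma 3.58.1), filters, thresholds, the replicate block, unrounded counts, and each library or ELAPOR1 left out.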

Additional observations from a re-analysis of the deposited data

How the results depend on the processing

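The 9 enzymes were called lower under each other scaling, tool and filter, without ELAPOR1 in the table, at an adjusted p-value under 0.01 and without any single library. The exception was testing for more than a 1.5-fold change, where edgeR called 2 of the 9 (MSMO1 and HSD17B7), 4 of the 9 early genes and 215 genes in all. Leaving out 1 library at a time, 5557 to 6316 genes were called, against 6193 in all 8 libraries. TM7SF2 moved most among the 9, from -0.46 to -0.33. Apart from the test against a 1.5-fold change, 775 of 789 values of 44 named genes kept their direction and their side of the threshold. Those that changed sign had not been called: CYB5R3 was at -0.0052 with upper-quartile scaling and between -0.018 and 0.030 with single libraries left out, below zero without control replicate 1, control replicate 3, ELAPOR1 replicate 1 or ELAPOR1 replicate 4, and PMVK was between -0.020 (without ELAPOR1 replicate 1) and 0.15 (without ELAPOR1 replicate 2). Without single libraries the ratios of neighbouring steps moved by less than their spread, but for 3 of the 4 whose groups overlapped that was over 1.5 times or a change of sign: SC5D over EBP went from -0.080 (without control replicate 3) to 0.014 (without control replicate 1), TM7SF2 over CYP51A1 from -0.23 (without control replicate 1) to -0.080 (without control replicate 4), and DHCR7 over SC5D from 0.028 (without control replicate 1) to 0.099 (without control replicate 4). No library stood apart in any of 38 groups of 4 values examined.

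With the replicate block 9 enzymes, 8 early genes and 5926 genes in all were called, and no call of the 9 changed. No pairing by number was visible, since deviations of same-numbered libraries from their group means correlated by -0.038 to 0.020 across genes. This cannot show that they shared no batch, which the labels do not state.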

Other observations

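Of 3 relatives of the 9 enzymes, EBPL and FAXDC2 were called lower and TMEM97 was not, against 22.1% of all tested genes called lower. With 3 genes this count is no result about the relatives. EBPL, which resembles EBP, went from 21.9 ± 0.753 to 17.9 ± 0.499 CPM (SD, n = 4 each, log2 fold change -0.29, edgeR adjusted p = 1.0e-03). FAXDC2, which belongs to the hydroxylase family of MSMO1 and SC5D, was at -0.67 ± 0.202 (SE, adjusted p = 6.7e-03 by edgeR) at a low level of 4.18 CPM in control. TMEM97, a sterol-binding relative of EBP, was at -0.099 (edgeR adjusted p = 0.106).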
